A study of Homo sapiens with 2 samples.

Results

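The genes described here are those that open or hold the G1 gate of the cell cycle: the kinases CDK4 and CDK6, the D-cyclins CCND1, CCND2 and CCND3, the inhibitors CDKN1A, CDKN1B, CDKN2A and CDKN2C, and RB1, the retinoblastoma gene. They were picked out by symbol, in a choice made with earlier results of these data known, and all 10 were found among the 28038 genes of the deposited table. The groups were 1 culture that overexpressed IGF2BP3, a reader of m6A marks on messenger RNA, and 1 control culture transfected with a blank viral vector. Both cultures carried the label OVCAR-3, a cell line established from a human ovarian carcinoma. Poly(A) RNA was sequenced, and the listed counts summed to 48017861 in the overexpression library and 43190215 in the control library. With 1 library per group there was no replicate error and no test, so every ratio below is between these 2 libraries.

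D-cyclins are made in response to growth signals and bind CDK4 or CDK6. The paired kinase phosphorylates the RB1 protein, which then releases E2F factors, and E2F factors switch on the genes of S phase. INK4 inhibitors (CDKN2A, CDKN2C) bind the kinases themselves, whereas CIP/KIP inhibitors (CDKN1A, CDKN1B) bind cyclin and kinase complexes and also act on CDK2. Transcripts of CDK6, CCND1 and CCND3 have been described elsewhere as bound by IGF2BP3, in other cell types.

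CDK6 was the member that stood apart. Its level in the overexpression library was 1.85 times that in the control library, and for CCND3, CDKN1A and RB1 the ratios were 1.2 to 1.24. CCND1 and CDK4 were slightly lower, CDKN1B was at the same level within counting error, and CCND2 was at or below 2 counts in both libraries. The 26 listed E2F targets of S-phase entry lay close to no difference, with log2 ratios of -0.20 to 0.10.

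IGF2BP3 itself had 6376 counts in the overexpression library and 2944 in the control library, or 133 against 67.9 CPM. CPM is a gene's counts per 1000000 after TMM scaling of the library totals. On the log2 scale of CPM plus 1 its difference was 0.96. The labelled cell type was set against its markers. Of 14 markers of serous ovarian carcinoma, 9 were listed, of which 8 stayed under 10 CPM in the overexpression and the control library alike. CDH1, the epithelial cadherin, had 2 counts in each library, and PAX8, the Mullerian lineage factor, had 32 counts in the overexpression library and 28 in the control library. The 9 summed to 108 CPM in the overexpression library and 110 CPM in the control library, most of it KRT18. Most of these epithelial and ovarian markers were thus at or near 0, which goes against the labelled cell type, so OVCAR-3 is used here as the label only. All 12 mesenchymal markers were listed, 7 of them below 10 CPM in both libraries, and they summed to 2471 and 2545 CPM in the overexpression and control libraries, mostly VIM. Of 7 leukocyte and endothelial markers 3 were listed, none above 4 counts. The part of cell makeup in the ratios was not tested. Fewer cells of a type and less RNA per cell cannot be told apart in bulk RNA.

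Each ratio carries a 95% exact (Clopper-Pearson) counting interval from halved counts, because low counts in this table were more often even than odd, as when each read pair adds 2. Such an interval holds no error but that of counting. The floor was set at 3 counts, or 0.0627 CPM in the overexpression library and 0.0692 CPM in the control library. A gene was called measured with at least 50 counts over both libraries, which 9 of the 10 members and 14157 of all genes reached. CCND2 was the exception.

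Among the kinases, CDK6 (ENSG00000105810; GRCh38 chromosome 7, 92604921 to 92836594, minus strand) had 2228 counts in the overexpression library and 1090 in the control library. These were 46.5 against 25.2 CPM, and 3.79 against 2.06 FPKM, the authors' value scaled by gene length and library total. The ratio of 1.85 had an interval of 1.67 to 2.05. Its log2 ratio of 0.86 ranked 68th from the top among the 14157 measured genes, and the authors' deposited table gives 0.88. Of the 9 measured members CDK6 alone passed 1.5-fold upward on the scale of CPM plus 1, as 1.02% of all measured genes did. No member passed 1.5-fold downward, against 0.643% of all measured genes. A threshold of 1.2-fold was passed upward by 3 members (CDK6, CDKN1A and RB1), against 7.49% of all measured genes, and downward by 0 members, against 5.74%.

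CDK4 (ENSG00000135446; chromosome 12, 57747727 to 57756013, minus strand) had 6135 counts and 41.3 FPKM in the overexpression library, against 5980 counts and 44.8 FPKM in the control library. Its ratio was 0.929 (0.883 to 0.977), on the other side of 1-fold from that of CDK6. The value of CDK4 is less certain than that of CDK6: of its 31-base words in the annotated transcripts, 38.6% (1301 words) also occur in other genes, 1281 of them in TSPAN31. That gene shares 1369 exon bases with CDK4 on the opposite strand and had 194 and 188 counts in the overexpression and control libraries. No source used here gives the strand setting of the counting, so reads from the shared bases cannot be told apart. For CDK6 the shared words made up 0.638%.

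The count of CDK6 relative to that of CDK4 does not depend on how the libraries are scaled. It was 0.363 in the overexpression library and 0.182 in the control library, a ratio of 1.99 with an interval of 1.77 to 2.24. Per length, CDK6 supplied 8.41% of the summed CDK4 and CDK6 FPKM in the overexpression library (7.89 to 8.95%) and 4.40% in the control library (4.03 to 4.81%). CDK4 was thus the more abundant kinase transcript per length in both libraries. The summed FPKM of the kinases was 45.1 in the overexpression library and 46.8 in the control library.

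The sequences around the starts of the kinase genes are shown because the pair differed in direction and because CDK4 is a textbook target of MYC, which binds the E-box CACGTG. Both are RefSeq promoters on GRCh38.p14, written 5′ to 3′ on the gene's strand, with E-boxes in capitals. The CDK6 stretch is chr7:92836524-92836823 (minus strand), and the CDK4 stretch is chr12:57752261-57752560 (minus strand).
CDK6: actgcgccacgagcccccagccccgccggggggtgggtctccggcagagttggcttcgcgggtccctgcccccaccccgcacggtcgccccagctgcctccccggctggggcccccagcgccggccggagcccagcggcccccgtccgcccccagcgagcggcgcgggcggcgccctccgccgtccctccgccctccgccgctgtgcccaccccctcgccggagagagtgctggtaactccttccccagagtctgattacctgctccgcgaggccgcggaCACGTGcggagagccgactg
CDK4: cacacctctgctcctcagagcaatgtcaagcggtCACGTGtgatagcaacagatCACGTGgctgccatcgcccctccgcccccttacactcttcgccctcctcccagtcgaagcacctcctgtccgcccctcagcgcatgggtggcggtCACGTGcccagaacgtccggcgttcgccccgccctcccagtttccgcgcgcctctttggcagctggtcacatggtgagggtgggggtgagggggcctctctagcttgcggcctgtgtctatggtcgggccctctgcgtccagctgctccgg

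The CDK4 stretch held 3 E-boxes and the CDK6 stretch shown 1. A second CDK6 promoter was listed, at chr7:92833910-92834209, and it held 0 E-boxes and 0 GC boxes. The word reads the same on both strands, and 7.26% of the 35116 listed promoters held it. Promoters were listed for 8 of the members, 14 stretches in all, of which 4 held an E-box. These belonged to CDK4, CDK6 and CDKN2C only, and stretches of the same gene are not independent. The GC box GGGCGG, searched on both strands and free to overlap itself, occurred 3 times in each of the kinase stretches shown and in 45.0% of all listed promoters. No E-box overlapped a GC box in these stretches. A match is a description of the letters only. MYC, a growth regulator, had 2035 counts in the overexpression library and 1984 in the control library, a ratio of 0.929 whose interval of 0.850 to 1.01 included 1-fold. Whether MYC plays a part in the ratio of CDK4 or CDK6 was not tested.

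**Figure D1:**
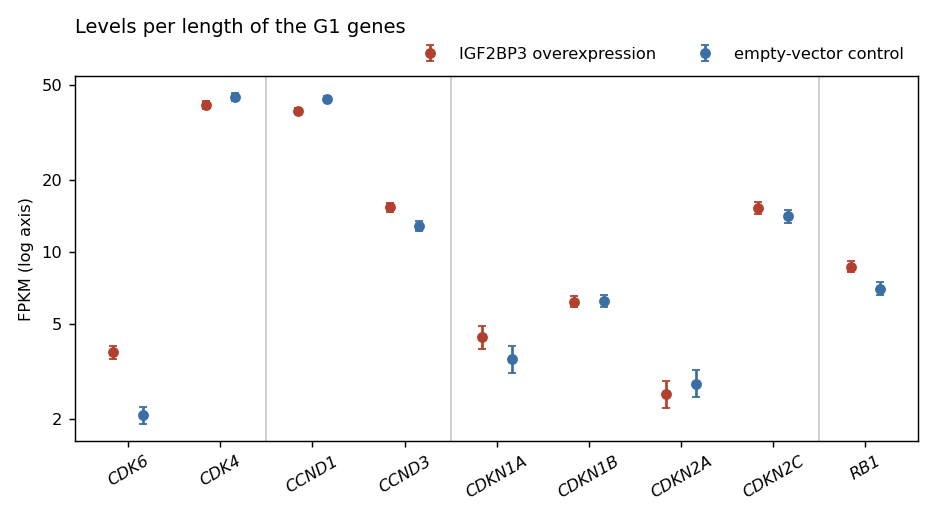
Deposited FPKM (log axis) of the 9 measured members, each point 1 library, overexpression left of control, with 95% exact Poisson counting intervals from halved counts. CDK6 was at 3.79 in the overexpression library and 2.06 in the control library, and CDK4 stood far above it in both.

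Of the D-cyclins, CCND1 (ENSG00000110092; chromosome 11, 69641087 to 69654474, plus strand) was the most abundant per length. CCND1 couples growth signals to CDK4 and CDK6 in many epithelial tumours. It had 8918 counts and 39.0 FPKM in the overexpression library, against 9037 counts and 43.9 FPKM in the control library, a ratio of 0.893 (0.857 to 0.931). The intervals of the libraries' FPKM values did not meet, with 37.9 to 40.2 in the overexpression library and 42.7 to 45.2 in the control library. CCND1 shares 497 exon bases with LTO1 on the opposite strand, a gene with 576 counts in the overexpression library and 650 in the control library.

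CCND3 (ENSG00000112576; chromosome 6, 41934933 to 42050357, minus strand), the D-cyclin best known from lymphoid cells, went the other way. It had 4252 counts and 15.4 FPKM in the overexpression library and 3208 counts and 12.9 FPKM in the control library. The ratio was 1.2 (1.12 to 1.28). Within a library, the count of CCND3 relative to CCND1 was 0.477 in the overexpression library and 0.355 in the control library, a ratio of 1.34 (1.24 to 1.45). CCND1 supplied 71.7% of the summed D-cyclin FPKM in the overexpression library and 77.3% in the control library. CCND2 (ENSG00000118971; chromosome 12), which is silent in many carcinoma cells, had 0 counts in the overexpression library and 2 in the control library, under the floor in both, so no ratio is given.

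The D-cyclins together came to 54.4 FPKM in the overexpression library and 56.8 FPKM in the control library. Relative to the summed kinases this was 1.21 in both. Within these sums the share of CDK6 among the kinases and of CCND3 relative to CCND1 was higher in the overexpression library.

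**Figure D2:**
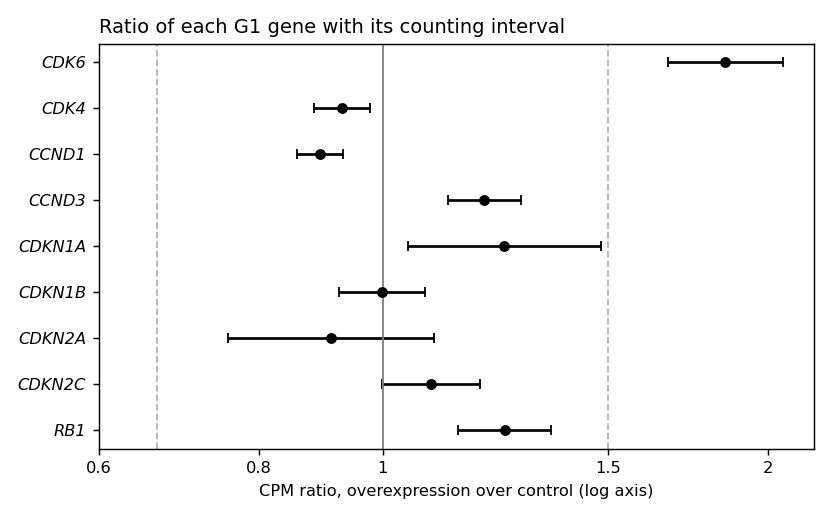
Ratio of CPM, overexpression over control (log axis), for the 9 measured members, with 95% exact counting intervals from halved counts; the solid line marks 1-fold and the dashed lines 1.5-fold. CDK6 at 1.85 is the only point past a dashed line.

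CDKN1A (ENSG00000124762; chromosome 6, 36676460 to 36687339, plus strand), which encodes p21, had 632 counts and 4.39 FPKM in the overexpression library, against 460 counts and 3.55 FPKM in the control library. Its ratio was 1.24, with an interval of 1.05 to 1.48. CDKN1B (ENSG00000111276; chromosome 12, 12715058 to 12722371, plus strand) encodes p27, which is controlled largely through its stability. It had 2743 counts, 57.3 CPM, in the overexpression library and 2486 counts, 57.4 CPM, in the control library, a ratio of 0.999 (0.924 to 1.08). Of all members CDKN1B lay closest to no difference.

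CDKN2A (ENSG00000147889; chromosome 9, 21967753 to 21995301, minus strand) yields p16 and, from another first exon and reading frame, the protein ARF, and counts per gene cannot separate these transcripts. It had 473 counts and 2.54 FPKM in the overexpression library and 470 counts and 2.80 FPKM in the control library. The ratio of 0.911 had an interval of 0.757 to 1.10, so no difference was detectable at this depth. CDKN2A shares 341 exon bases with the antisense gene CDKN2B-AS1, which had 335 counts in the overexpression library and 252 in the control library. CDKN2C (ENSG00000123080; chromosome 1, 50960745 to 50974633, plus strand) encodes p18. It had 2212 counts and 15.3 FPKM in the overexpression library, against 1836 counts and 14.1 FPKM in the control library. Its ratio of 1.09 had an interval of 0.998 to 1.19, which just reached 1-fold; from counts as deposited it was 1.02 to 1.16.

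CDKN2C supplied 53.8% of the summed inhibitor FPKM in the overexpression library and 52.8% in the control library. The summed inhibitors stood at 0.629 times the summed kinases in the overexpression library and at 0.570 times in the control library. Both figures hang on the length taken for CDKN1B. The deposited FPKM implies 9255 bases for it, whereas the exons in GENCODE 29 cover 2811 bases. The deposited counts of CDKN1B over the GENCODE length give 20.3 FPKM in the overexpression library and 20.5 in the control library. The deposited values were 6.17 and 6.22. The counts may include reads from bases outside the GENCODE exons, so 20.3 and 20.5 may be too high. The place of CDKN1B in the order per length, against CDKN2C, CCND3 and RB1, is thus not settled.

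RB1 (ENSG00000139687; chromosome 13, 48303726 to 48599436, plus strand), the main substrate of the kinases, had 2681 counts and 8.68 FPKM in the overexpression library and 1950 counts and 7.02 FPKM in the control library. The ratio was 1.24 (1.15 to 1.35), and the FPKM intervals did not meet. Trends in GC content and transcript length were also removed, fitted over the 11597 measured genes for which these were known. The log2 ratio of RB1 was then 0.20 in place of 0.31, and the GC content of its transcript was 37.3%. The same step put CDK6 at 0.69 in place of 0.86, CDK4 at -0.05 in place of -0.11 and CDKN2A at -0.03 in place of -0.12, all nearer to 0. It put CCND3 at 0.34 in place of 0.26, CDKN1A at 0.35 in place of 0.29 and CDKN2C at 0.17 in place of 0.12, all further from 0. CCND1 stayed at -0.16, and CDKN1B was at 0.04 in place of -0.0016. With the trends removed CCND3 was past 1.2-fold and RB1 was not. The related pocket proteins were nearer to 1-fold, RBL1 at 1.08 (1.00 to 1.16) and RBL2 at 1.09 (0.995 to 1.19).

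Counted together, 5 of the 9 measured members had log2 ratios above 0 and 4 had them below, and their median was 0.12 against 0.0042 over all measured genes. The interval lay above 1-fold for 4 of them (CDK6, CCND3, CDKN1A and RB1), where 15.9% of all measured genes had such an interval. It lay below 1-fold for CDK4 and CCND1, against 10.9% of all measured genes. Intervals narrow with counts: among the 8966 genes with at least the 943 counts of the lowest measured member, those shares were 21.8% and 14.2%, and the shares past 1.5-fold were 0.524% upward and 0.234% downward.

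In order of deposited FPKM, the overexpression library ran CDK4, CCND1, CCND3, CDKN2C, RB1, CDKN1B, CDKN1A, CDK6, CDKN2A and CCND2. The control library had the same order except that CDKN2C stood before CCND3 and CDKN2A before CDK6. Neighbours whose counting intervals overlapped were CDK4 and CCND1, CCND3 and CDKN2C, and, in the overexpression library, CDKN1A and CDK6. In the control library the overlapping pair at the low end was CDKN1A and CDKN2A, and CDK6, at 1.89 to 2.24 FPKM, lay below CDKN2A, at 2.45 to 3.18. In the overexpression library CDK6, at 3.57 to 4.02, lay above CDKN2A, at 2.22 to 2.88. The order and these intervals rest on the deposited lengths. With GENCODE lengths CDKN2A was at 2.51 FPKM in the control library, nearer to CDK6 at 2.06. CDKN1B was then at 20.3 in the overexpression library and 20.5 in the control library, values that may be too high. These lay above CCND3, at 15.3 and 12.8 in the same order.

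Of the other listed G1 genes that were measured, CDK7 (1 of 6 in its list) and ETS1 (1 of 13) were past 1.5-fold upward. The other G1 lists held 2 to 26 measured genes each, and 1.02% of all measured genes were past 1.5-fold upward. Among cyclin E, cyclin A and CDK2 genes, 5 of the 6 chosen were measured, 3 above 0 and 2 below, with a median of 0.0054. CCNE1, the cyclin that drives CDK2, had 1836 counts in the overexpression library and 1929 in the control library, a ratio of 0.862 (0.786 to 0.944). CDC25A, the phosphatase that activates CDK2, was at 0.878 (0.819 to 0.942), CCNA2 at 1.04 (1.01 to 1.08) and CDK2 itself at 1.00 (0.941 to 1.07). Of the other inhibitors, CDKN2D was at 1.13 (0.940 to 1.35) and CDKN2B at 1.06 (0.861 to 1.31), both with intervals that held 1-fold, and CDKN1C had 0 and 2 counts in the overexpression and control libraries.

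The 6 genes of the CDK-activating kinase and of the chaperones that fold CDK4 had a median of 0.05. CDK7, the catalytic subunit of the activating kinase, was the exception, with 351 counts in the overexpression library and 68 in the control library, a ratio of 4.67 (3.22 to 6.96). These were low levels, 7.33 CPM in the overexpression library and 1.57 CPM in the control library, against 54.0 and 52.3 CPM for CCNH. Words shared with other genes were counted for the members only, so how cleanly CDK7 was counted is not known. The partners of CDK7 did not share its ratio, with MNAT1 at 1.04 (0.967 to 1.12) and CCNH at 1.03. Of the 10 other genes measured within 1 Mb of CDK7, 3 lay above 0 and 7 below, with a median log2 ratio of -0.06. OCLN at 1.12 and RAD17 at -0.92 were past 1.5-fold, and the other 8 lay between -0.25 and 0.10. The chaperone CDC37 had a ratio of 0.961 (0.928 to 0.995).

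Among the pocket proteins and E2F and DP factors, 11 of 12 were measured, 6 above 0 and 5 below, with a median of 0.018 and none at least 1.5-fold different. TFDP2, a partner of E2F factors, was furthest from 0 at 1.16 (1.06 to 1.27), and E2F1 was at 0.934 (0.852 to 1.02). The list of 6 genes for MuvB held its core genes, whose proteins silence cell cycle genes together with pocket proteins, and MYBL2, whose protein joins MuvB to activate them. These split 3 and 3 with a median of 0.00013, with the histone-binding RBBP4 at 1.08 (1.04 to 1.12), LIN37 at 1.13 (0.603 to 2.15) and MYBL2 at 0.948 (0.908 to 0.990). Of 26 E2F targets of S-phase entry, 13 lay above 0 and 13 below, with a median of -0.0003 and a range of -0.20 to 0.10. CDT1, which licenses origins, marked the low end at 0.866 (0.783 to 0.956), and the ribonucleotide reductase subunits RRM1 and RRM2 were at 1.07 (1.04 to 1.11) and 0.951 (0.930 to 0.972).

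Ubiquitin ligase parts and regulators of cyclin and p27 turnover had a median of -0.018 over 15 measured genes. SKP2, which targets p27 for destruction, was at 1.09 (1.03 to 1.15), the ligase scaffold CUL4B at 1.09 (1.04 to 1.15) and the F-box protein FBXO4 at 0.901 (0.741 to 1.10). Upstream of the D-cyclins, 17 genes had a median of 0.038, among them the growth signal transducer NRAS at 1.10 (1.06 to 1.15) and the Wnt pathway factor TCF7L2 at 0.910 (0.814 to 1.02). Genes that control the CDKN2A locus had a median of 0.0016 over 13 measured. ETS1, which can activate the p16 promoter, was at 1.68 (1.44 to 1.97), ID1, its antagonist there, at 0.674 (0.585 to 0.777), and ETS2 at 0.811 (0.677 to 0.972).

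**Figure D3:**
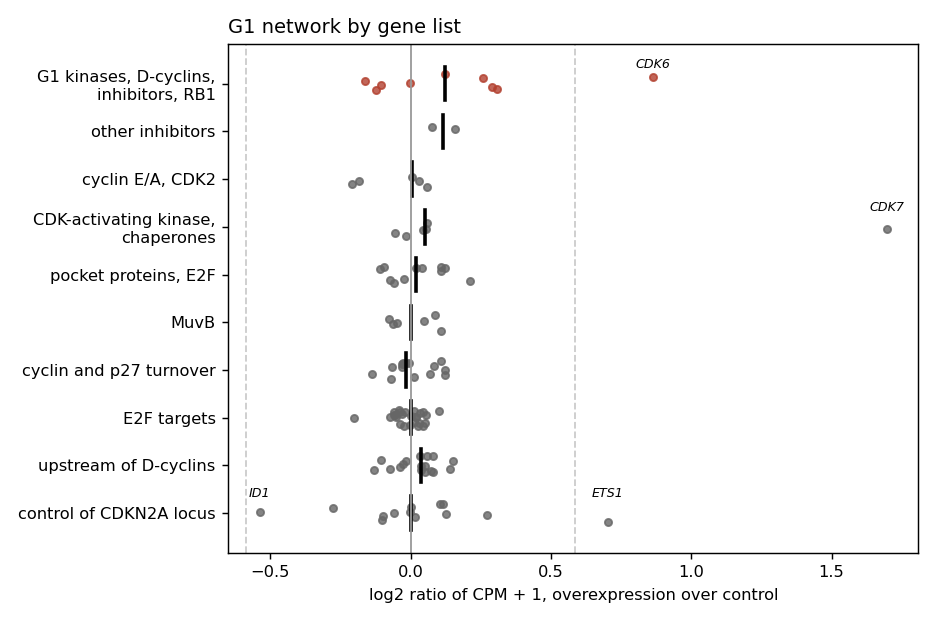
Log2 ratio (CPM plus 1, overexpression against control) of each measured gene by list; each point is 1 gene, black bars are list medians and dashed lines mark 1.5-fold. CDK6, CDK7 and ETS1 lie past 1.5-fold upward, as do 1.02% of all measured genes, and the 26 E2F targets lie between -0.20 and 0.10.

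SAMD9 and SAMD9L, growth-restraining genes of 7q21, are the closest measured neighbours of CDK6 on the side upstream of its start. SAMD9L had 664 counts in the overexpression library and 308 in the control library, a ratio of 1.95 (1.61 to 2.38). SAMD9 had 203 counts in the overexpression library and 71 in the control library, a ratio of 2.59 (1.75 to 3.91). CDK6, SAMD9 and SAMD9L were thus 3 consecutive measured genes, each past 1.5-fold upward on the scale of CPM plus 1. The members were chosen with earlier results of these data known, so this run is described and is not an independent find.

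Within 1 Mb of the CDK6 start 13 other genes were measured, and their median log2 ratio was 0.10 with SAMD9 and SAMD9L among them. Without that pair, 7 of the 11 genes lay above 0 and 4 below, with a median of 0.07 and a range of -0.32 to 0.39. VPS50, the next gene upstream, had a ratio of 1.08 (0.971 to 1.19), and FAM133B, the next downstream, one of 1.05 (0.941 to 1.18). Further downstream, as ratios, RBM48 was at 0.933 (0.814 to 1.07) and GATAD1 at 0.917 (0.852 to 0.987). The sterol demethylase CYP51A1 was at 1.37 (1.07 to 1.77) and the kinase anchor AKAP9 at 1.26 (1.15 to 1.37). ANKIB1 was at 1.17 (1.10 to 1.25), KRIT1 at 0.873 (0.762 to 0.999) and MTERF1 at 1.01 (0.896 to 1.14). Another gene, ENSG00000244055, which has no symbol in the table, had 57 counts in the overexpression library and 75 in the control library. Over chromosome 7 as a whole the median of 680 measured genes was -0.0095, and 1.76% were at least 1.5-fold higher. Whether position plays a part in the ratio of CDK6 was not tested. Within 1 Mb of CDK4, CCND2, CCND3, CDKN1A, CDKN2C and RB1 none of the 30, 7, 27, 22, 7 and 8 other measured genes was 1.5-fold different. Near CDKN1B and CDKN2A 1 gene each was past 1.5-fold upward, out of 10 and 11. Near CCND1 1 gene was past it upward and 1 downward, out of 11. Over all measured genes 1.02% were past 1.5-fold upward and 0.643% downward, so windows this small would often hold none.

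**Figure D4:**
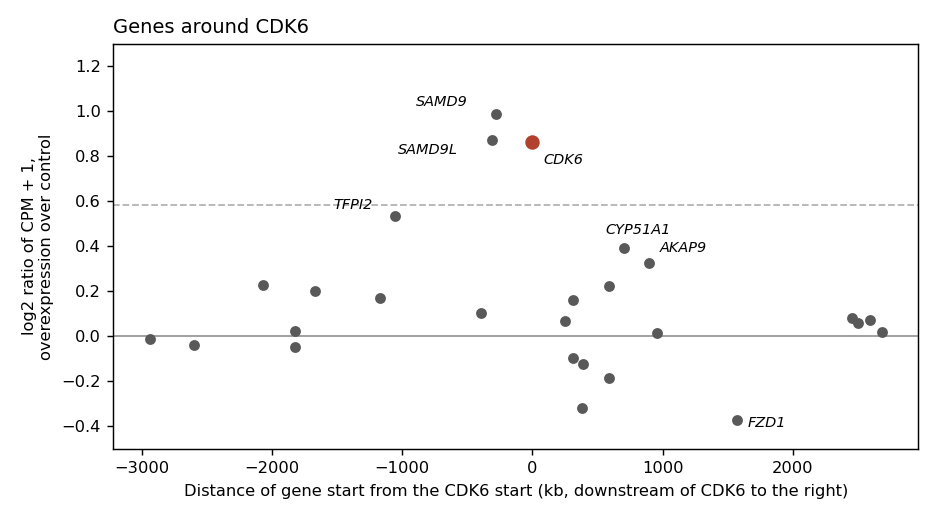
Log2 ratio (CPM plus 1, overexpression against control) of measured genes whose start lies within 3 Mb of the CDK6 start, by distance in kb; CDK6 is in red and the dashed line marks 1.5-fold. CDK6, SAMD9 and SAMD9L stand above that line, and the genes on either side do not.

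IGF2BP proteins are known to favour the m6A motif GGAC, so its occurrence on the transcript's own strand was counted in the annotated transcript with the longest coding sequence of each member. CDK6 held 18 in 11612 bases, or 1.55 per kb, and 93.6% of 11597 measured genes were at least as dense. Its count of 18 in this long transcript was above the median of 12. RB1 held 19 (3.96 per kb), CCND1 17 (3.95 per kb), CDKN1A 12 (5.29 per kb) and CCND3 9 (4.32 per kb), beside a median of 3.76 per kb over those genes. CDK4 held 9 (4.34 per kb) and CDKN2C 20 (6.89 per kb). CDKN1B, whose levels differed by less than counting error, was the densest member at 7.80 per kb, with 7 in 897 bases. CDKN2A, the one with fewest, held 3 in 880 bases (3.41 per kb). The GENCODE exons of CDKN1B and CDKN2A cover 2811 and 4329 bases, and those of CDK6 cover 12260. The transcripts used thus held most of the exon bases of CDK6 but only a small part of those of CDKN1B and CDKN2A, so these densities compare unlike stretches. A match in the letters is not a bound or methylated site.

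The genes closest to CDK6 in level, by distance on log2 CPM plus 1 over the 2 libraries, were the growth factor gene EGF at a distance of 0.15, ARHGAP18 at 0.17 and LRRC28 at 0.30. EGF had 2057 counts in the overexpression library and 1020 in the control library, ARHGAP18 had 2371 and 985, and LRRC28 had 1798 and 1099 in the same order. With 2 libraries such likeness only restates a level and a ratio.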

How the data were processed

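RNA-seq libraries of 1 IGF2BP3-overexpressing and 1 control culture were compared; groups came from the genotype labels. Per the file headers, the authors deposited whole-number counts and FPKM values for each gene, together with a log2 fold change that the authors deposited in a separate table. Per the submitters' processing notes the build was GRCh38; the aligner, counter, strand setting and annotation were not given in these sources. Count over FPKM and library total gave gene lengths within 0.01 of a whole number for 99.99% of genes.

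Counts were scaled by TMM over the whole table (edgeR 4.0.16, R 4.3.3), and differences are log2 ratios of CPM plus 1. With no replicates, no p-value was computed. Among counts of 1 to 20, 63.3% were even in the overexpression library and 64.1% in the control library, so intervals used halved counts. PCR reads without molecular identifiers are not independent molecules. Positions, exons and transcripts came from GENCODE 29, which held 94.2% of the gene IDs and all members. The steps were run on simulated counts that were all even and held Poisson spread only. Such counts cannot show how well the intervals hold for these data, where not all low counts were even.

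The members and lists were chosen with earlier results of these data known. Genes named were all members, IGF2BP3, measured genes within 1 Mb of CDK6, the 3 measured genes furthest from 0 in each list with CCNE1, CDK2, E2F1, RBL1, RBL2 and MYC, and the 3 genes nearest to CDK6 in level; some genes that this rule takes are not reported here. CCNH, KRT18, VIM, CDH1, CDKN1C, TFPI2, and the genes overlapping members or near CDK7 were named after their values were seen. Of the marker lists, ovarian carcinoma genes had a median log2 ratio of -0.05 over 4 measured, led by KRT8 at -0.13, EPCAM at -0.09 and PAX8 at 0.02, and mesenchymal genes -0.06 over 11, led by TWIST1 at -0.31, TAGLN at -0.29 and FN1 at -0.26. Other tools were DESeq2 1.42.0, Python 3.11.15, numpy 2.4.6, pandas 2.3.3, scipy 1.17.1 and matplotlib 3.10.9.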

Additional observations from a re-analysis of the deposited data

How the results depend on the processing

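Alternatives were library-total or DESeq2 scaling, FPKM plus 1, pseudocounts of 0.1 and 5 CPM, count minimums of 10, 200 and none, fold thresholds, windows, GENCODE lengths and unhalved counts; the removal of trends in GC content and length was added after seeing the data. On every scale tried CDK6 was past 1.5-fold upward, with a log2 ratio of 0.65 as FPKM plus 1 and 0.69 with trends removed, both below its counting interval. With a 1.2-fold threshold 3 members were higher (CDK6, CDKN1A and RB1), against 7.49% of all measured genes, with CCND3 past it in place of RB1 once trends were removed, and with a 2-fold threshold 0 were. With GENCODE lengths the inhibitor to kinase ratio was 0.925 in the overexpression library and 0.859 in the control library, mostly through CDKN1B. The counts of CDKN1B may include reads from bases outside the GENCODE exons, so these ratios may be too high. The interval of CDKN2C left 1-fold with unhalved counts. The other 207 planned values and 23 added ones stayed within counting error or 1.5 times the count. Some values near 0 changed sign there, among them CDKN1B at 0.0035 with DESeq2 scaling and the E2F targets at 0.0048. With 1 library per group no replicate could be left out, and depth left CCND2 without a ratio. No paired analysis was possible because each group holds 1 sample.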
